A study of Homo sapiens with 6 samples.

Results

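Potassium channel genes are the 99 loci, of 74852 in the deposited expression table of MDA-MB-231 cells, whose gene symbol begins with KCN followed by a family letter and a number, leaving out antisense and intronic transcripts whose names end in -AS1 or -IT1. Of these, 94 encode channel subunits and 5 are noncoding transcripts named after a channel gene (KCNQ1OT1, KCNQ1DN, KCNMA1-AS2, KCNMA1-AS3 and KCNAB1-AS2). Expression in this line of triple negative breast cancer was compared between 3 libraries of cells transfected with non-targeting control siRNA (si-CTRL) and 3 libraries of cells that received a mix of SAM68-targeting siRNAs (si-SAM68). SAM68 is an RNA-binding protein of the STAR family that regulates splicing, and its gene is KHDRBS1. All 6 libraries come from the same cell line, were transfected 2 times with a lipid reagent and, by the sample labels, were harvested 24 h after the second round, while the study's methods give another harvest time. The libraries were made from polyadenylated RNA, and the labels do not say whether the 3 libraries of a condition came from separate cultures, so that all p-values measure the spread between these libraries, which may be technical. The knockdown is transient, by a single siRNA pool in a single line.

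Potassium channels let potassium leave or enter the cell along its electrochemical gradient and so set the resting membrane potential. They differ in what opens them. Voltage-gated channels open on depolarization, calcium-activated channels on a rise of intracellular calcium, inward rectifiers pass current best near and below the resting potential, and 2-pore-domain channels carry background leak currents, while electrically silent subunits and auxiliary subunits modify the channels they assemble with. In epithelial and cancer cells, where no action potentials are fired, these channels are known for roles in cell volume, secretion, proliferation and migration.

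The siRNAs are shown because they are the only agent that differed between the conditions and because their seeds can be compared with the channel transcripts. The sense strands are written 5′ to 3′, and the capitals mark the 7 bases that a seed match in a transcript would share, that is, the bases opposite guide positions 2 to 8.
siSAM68_1: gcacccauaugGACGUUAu
siSAM68_2: gaaagagcgagUGCUGAUa
siSAM68_3: uaugauggaugAUAUCUGu
siSAM68_4: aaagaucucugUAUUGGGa
Each of the 4 matched exonic sequence of KHDRBS1 transcripts on the plus strand of chromosome 1 (GRCh38), at chr1:32042603-32042621, chr1:32030383-32030401, chr1:32036912-32036930 and chr1:32031595-32031613, respectively. KHDRBS1 itself (chr1:32479295-32526460 in hg19, the build of the deposited table) had 15660, 14483 and 14737 normalized reads in si-CTRL and 583.3, 601.6 and 670.2 in si-SAM68, so that 4.13% of the si-CTRL mean was left.

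The libraries held between 52625492 and 82568487 reads counted on loci. Together the member loci took 17866 to 24611 reads per library, which include joined loci whose reads cannot all be assigned to a channel gene. Without the joined loci they took 13739 to 19162 reads per library, or 0.0281% to 0.0301% of the si-CTRL reads and 0.0236% to 0.0256% of the si-SAM68 reads outside the ribosomal RNA locus. Values below are normalized read counts, that is, reads divided by a size factor for the library's depth, with the SD over the 3 libraries. One read was worth 0.92 to 1.25 of these units, and a locus without any read in a library may still have had up to 2.76 to 3.75 units there, the value of 3 reads, a limit which covers counting error only. si-SAM68 replicate 2 stood apart in that a single locus annotated as ribosomal RNA took 15.1% of its reads, against 1.83% to 3.17% in the other 5 libraries, and the calls of the channel loci that are lost without this library are given both ways. Markers of the line (VIM, CD44, EGFR, KRT8 and KRT18) were present in every library. Of the 5 markers taken as low in this line, PGR had no read, ESR1 was at most 15.2, CDH1 at most 4.60 and EPCAM at most 9.20, whereas ERBB2 had 2413 to 3447 normalized reads.

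At a minimum mean of 10 normalized reads, MDA-MB-231 cells expressed a minority of the channel repertoire. Of the 94 subunit loci, 27 had no read in any library, 26 had reads but a mean under the minimum of 10 normalized reads over the 6 libraries, and 41 passed this minimum and were tested. The minimum was set on the mean of all libraries, so that a locus could pass through one condition alone. KCNK12 did so, with a mean under the minimum in si-SAM68, and KCNK2 stood at 11.8 there.

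The voltage-gated alpha subunits were represented by 12 tested loci of 30. Among those that passed the minimum were KCNQ5, which carries slowly activating currents of the M type, and KCNH3 and KCNH1. KCNH3 and KCNH1 are members of the ether-à-go-go family, the latter often studied in tumours. KCNC4 and KCNC1 (fast, high-threshold channels), KCNQ1, KCNQ3, KCNH4 and KCND1 also passed it. The KCNA family was nearly silent. KCNA1, KCNA2, KCNA3, KCNA5, KCNA6 and KCNA10 had no read, and KCNA4 and KCNA7 had 1 and 4 reads over all libraries. No read was found for KCNB2, KCNC2, KCND3 and KCNH7 either. KCNH2, the channel of the rapid cardiac repolarizing current, had 2 reads in all. KCNH5, KCNH6, KCNH8 and KCND2 had reads but means below the minimum.

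Of the 10 electrically silent subunits, which form no channel alone and alter the voltage-gated channels they assemble with, KCNS3, KCNG1, KCNF1 and KCNG3 were tested. KCNS1 and KCNG4 had 8 and 2 reads, and KCNG2, KCNS2, KCNV1 and KCNV2 none. Of the 8 loci for calcium- or sodium-activated and related channels, KCNMA1, the large-conductance calcium- and voltage-activated channel, KCNN4, the intermediate-conductance channel of epithelia and lymphocytes, and KCNN3 were tested. KCNN1, KCNN2, KCNT1, KCNT2 and KCNU1 had reads but lay under the minimum.

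Among the 15 inward rectifier loci, 6 were tested. These were KCNJ4 and KCNJ2 (strong inward rectifiers), KCNJ6 (a G-protein-gated subunit), KCNJ11 (the pore of ATP-sensitive channels) and the joined loci KCNJ12 // KCNJ18 and GRWD1 // KCNJ14. A joined locus sums the reads of its genes, so that the second value cannot be assigned to KCNJ14, all the more as it lies inside the coordinates of the FTL locus on the same strand, and KCNJ12 and KCNJ18 are near-identical copies. KCNJ3, KCNJ8, KCNJ9, KCNJ10, KCNJ13 and KCNJ16 had no read, while KCNJ1, KCNJ5 and KCNJ15 remained under the minimum. The 2-pore-domain family had 8 tested loci of 15, KCNK1, KCNK6, KCNK3, KCNK5, KCNK2, KCNK15, KCNK12 and the joined KCNK4 // TEX40. KCNK16, KCNK17 and KCNK18 had no read, and KCNK7, KCNK9, KCNK10 and KCNK13 were under the minimum.

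Auxiliary subunits accounted for 8 tested loci of 16. KCNAB2 and KCNAB3 (cytoplasmic beta subunits of voltage-gated channels), KCNIP3 and KCNIP2 (calcium-binding proteins that associate with KCND channels), KCNMB3 and KCNMB4 (beta subunits of KCNMA1 channels), and KCNE1 and KCNE5 (small single-span partners of KCNQ1 and other channels) were tested. KCNE3, KCNMB1, KCNIP1 and the joined KCNMB2 // LINC01014 had no read, and KCNE2, KCNE4, KCNAB1 and KCNIP4 were below the minimum. Of the 5 noncoding transcripts, KCNQ1OT1, the imprinted antisense transcript of KCNQ1, was the only one tested.

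**Figure D1:**
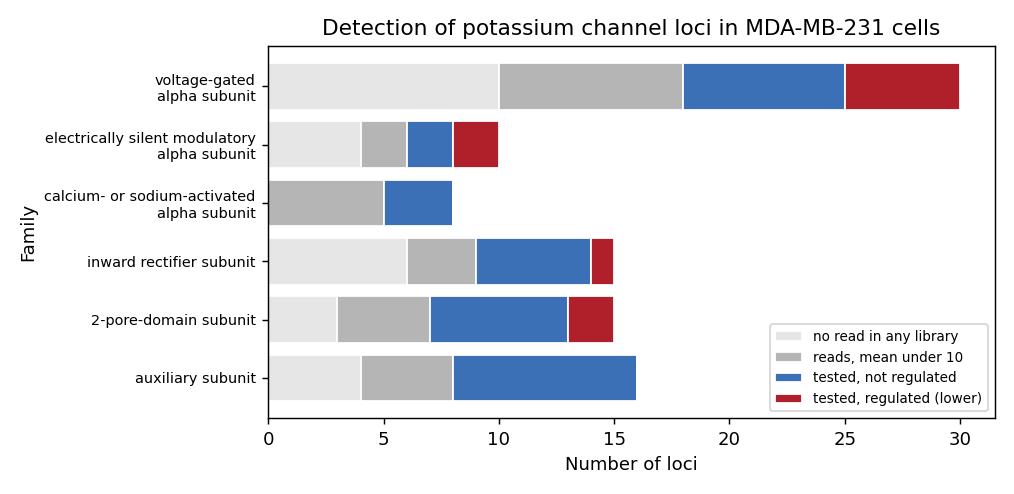
Number of loci of each potassium channel family (horizontal bars, axis from 0) that had no read, had reads but a mean under 10 normalized reads, or were tested and either lower in si-SAM68 or not regulated. The voltage-gated family holds 5 of the lower loci, the auxiliary subunits none.

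To order the channels by level, the si-CTRL values were divided by the length in kilobases of the longest protein-coding transcript of the gene, which was available for 38 of the 41 tested loci. KCNK1, a weakly conducting leak channel subunit, was highest with 1473 ± 139.3 normalized reads per kilobase (SD, n = 3), followed by KCNMA1 with 535 ± 67.2. KCNK6, a relative of KCNK1, had 199 ± 4.73, and these 3 were each separated from the next gene by ranges that did not overlap. The range of KCNK6 (194.2 to 203.6) did overlap that of KCNAB2 (164.7 to 194.7), which stood further down the order. KCNIP3 (183 ± 10.8), KCNAB2 (182 ± 15.5) and KCNS3 (155 ± 19.8) per kilobase came next, and each overlapped its neighbour, KCNS3 also overlapping KCNQ5 (141 ± 3.02). KCNH3 (128 ± 6.40), KCNG1 (119 ± 22.9) and KCNAB3 (118 ± 21.0) per kilobase again could not be told from each other by their ranges. Over the whole order, 30 of the 37 pairs of neighbours overlapped and 7 did not. The order depends on the length that is used. With the summed length of all annotated exons of a gene instead, KCNK1 stayed first but KCNK6 came before KCNMA1. KCNIP3 moved down from rank 4 to rank 10, KCNAB2 from 5 to 8 and KCNG1 from 9 to 13. KCNJ4 moved up from rank 11 to rank 7 and KCNK3 from 12 to 9. The plot of levels per kilobase shows KCNK1 and KCNMA1 set apart at the top.

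**Figure D2:**
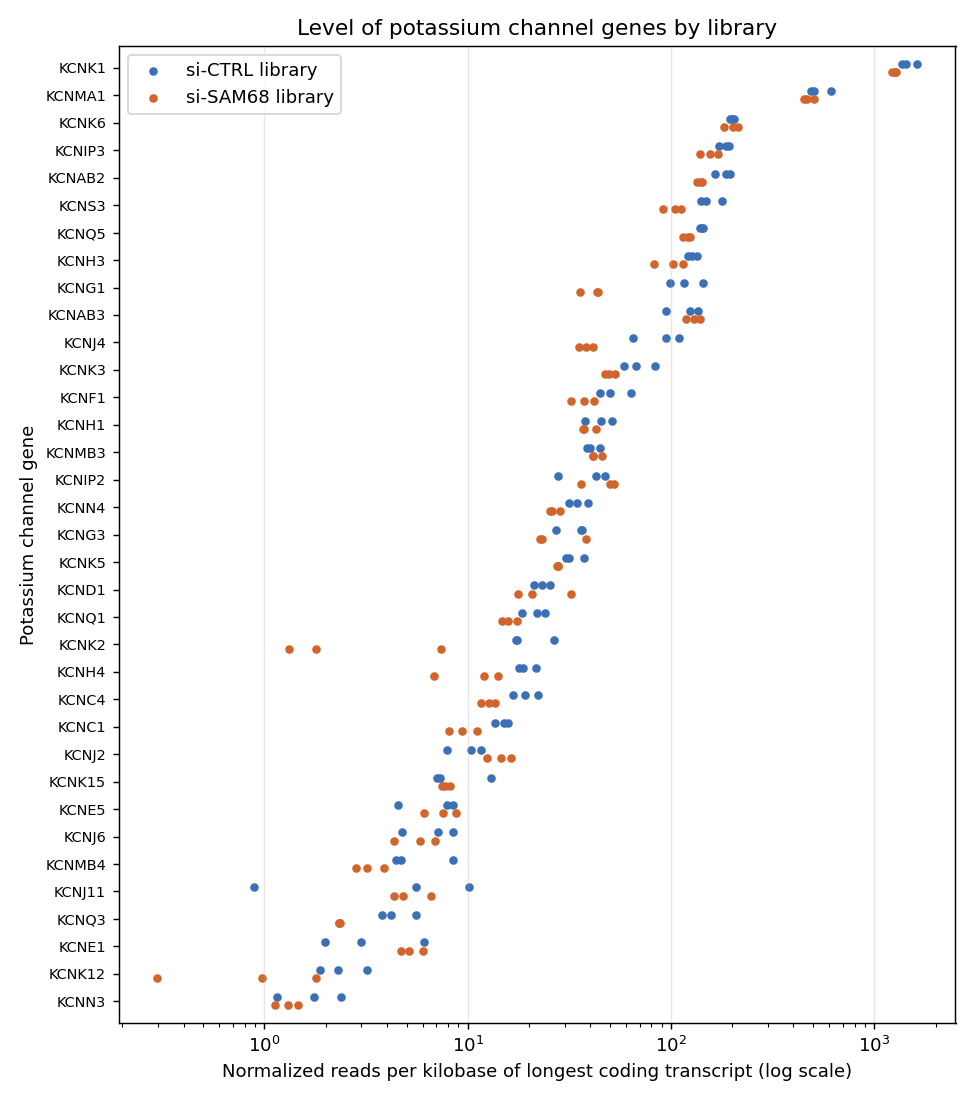
Normalized reads per kilobase of the longest protein-coding transcript (log axis) of tested potassium channel genes, with 1 point per library of si-CTRL and si-SAM68. KCNK1 lies highest at a si-CTRL mean of 1473, KCNMA1 next at 535, and most other neighbours in the order overlap.

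Variation between the si-CTRL libraries set the precision of each comparison. The coefficient of variation over the 3 si-CTRL libraries had a median of 16.4% among the tested members, and ranged from 2.14% for KCNQ5 to 83.9% for KCNJ11, which had only 2.50, 15.5 and 28.5 normalized reads. Depletion effects on loci with few reads are therefore poorly resolved.

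The comparison of si-SAM68 with si-CTRL asked which channel genes respond at the expression level when SAM68 is depleted. Regulated loci were defined by the thresholds of the study, a fold change of at least 1.5 and an unadjusted p-value of at most 0.05, here from limma fitted on log2(normalized read count + 1) of 18849 loci. The size of the fold change of low genes depends on the added value and on the tool. For KCNK2, the log2 fold change was -2.78 in limma and -2.93 with 0.1 added instead of 1. It was smaller in size with edgeR (-2.48) and DESeq2 (-2.51). All regulated channel loci were lower. Of the 41 tested subunit loci, 10 (24.4%) were lower in si-SAM68, among them KCNK2, KCNG1, KCNK12, KCNJ4, KCNQ3, KCNH4, KCNC1, KCNC4 and KCNS3, whereas 4.83% of all tested loci were lower. None was higher by limma, edgeR or DESeq2, against 2.83% of all tested loci by limma, and 1, KCNJ2, was higher at an unadjusted p under 0.05 by limma and by edgeR, but none by DESeq2. Channel loci were expressed at lower levels than the table as a whole, with a median of 106.9 normalized reads against 610.1 for all tested loci. Among all tested loci with a mean under 1000, which includes all 10 of the lower channel loci, 7.14% were lower. This band is no close match in level, since the highest mean of a lower channel locus was 309 (KCNS3). With the minimum mean raised from 10 to 50, the regulated loci of either direction went from 1445 of 18849 to 989 of 15034. The share of calls at the levels of the lower channel loci was not computed. KCNK12, which passed the minimum only through si-CTRL, is included among the lower loci. It is also in the counts given below of estimates below 0 and of libraries without overlap, and adds no independent weight to them.

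With Benjamini-Hochberg adjustment over all loci tested in limma, 8 of the 41 loci (19.5%) had an adjusted p under 0.05 and all 8 were lower, compared with 10.7% of all loci in either direction and 6.23% in the lower direction. These were 7 of the regulated loci (KCNG1, KCNJ4, KCNK2, KCNC4, KCNS3, KCNQ3 and KCNC1) and KCNAB2, whose fold was below the threshold. Libraries with the same replicate number deviated together, as given in the methods, and with the replicate number as a block this count dropped to 4 (KCNG1, KCNJ4, KCNK2 and KCNC4), while the count of lower loci was 9. The count also moved with single libraries, to 4 when replicate 2 and to 3 when replicate 3 of si-CTRL was omitted, and to 2, 3 and 2 when replicate 1, 2 or 3 of si-SAM68 was. Leaving out si-SAM68 replicate 2, the library with the high ribosomal share, left 7 lower loci.

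Beyond the calls, most estimates of the channel loci were below 0. The log2 fold change was below 0 in 33 of the 41 loci (80.5%), compared with 49.1% of all tested loci and 50.7% of those with a mean under 1000, and its median was -0.25 against 0.01 for all loci. With quantile normalization it was below 0 in 31 loci (median -0.23) and with TMM factors in 33. In 23 loci (56.1%) every si-SAM68 library lay below every si-CTRL library, as was the case for 17.3% of all tested loci and for 16.9% of those with a mean under 1000. Only KCNJ2 had every si-SAM68 library above every si-CTRL library, a pattern found in 16.6% of all loci, where the conditions did not overlap in either direction in 33.9%. In bulk RNA, a lower level per cell and fewer cells that express a gene cannot be told apart. Some neuronal markers were also lower. Of the 5 neuronal markers, 4 were tested and 2 were lower by limma with Benjamini-Hochberg adjustment, SNAP25 (log2 fold change -1.13, adjusted p = 0.00209) and SYT1 (-0.69, adjusted p = 0.00504). Of all tested loci, 6.23% were lower by this measure. GAD1 (0.12) and SLC17A7 (-0.22) had overlapping libraries and adjusted p-values of 0.664 and 0.584 in limma. The summed level of the 5, of which SYT1 made up the most, was 1196 to 1322 in si-CTRL and 790 to 887 in si-SAM68, with RBFOX3 at most 5.70. The 4 muscle markers, of which 1 was tested and not regulated, were summed at 100 to 142 and 67.5 to 114, and the leukocyte markers at 8.75 to 19.4 and 11.1 to 18.4, where PTPRC and the other 4 did not reach the minimum. The part of these expression programmes in the channel result was not tested.

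**Figure D3:**
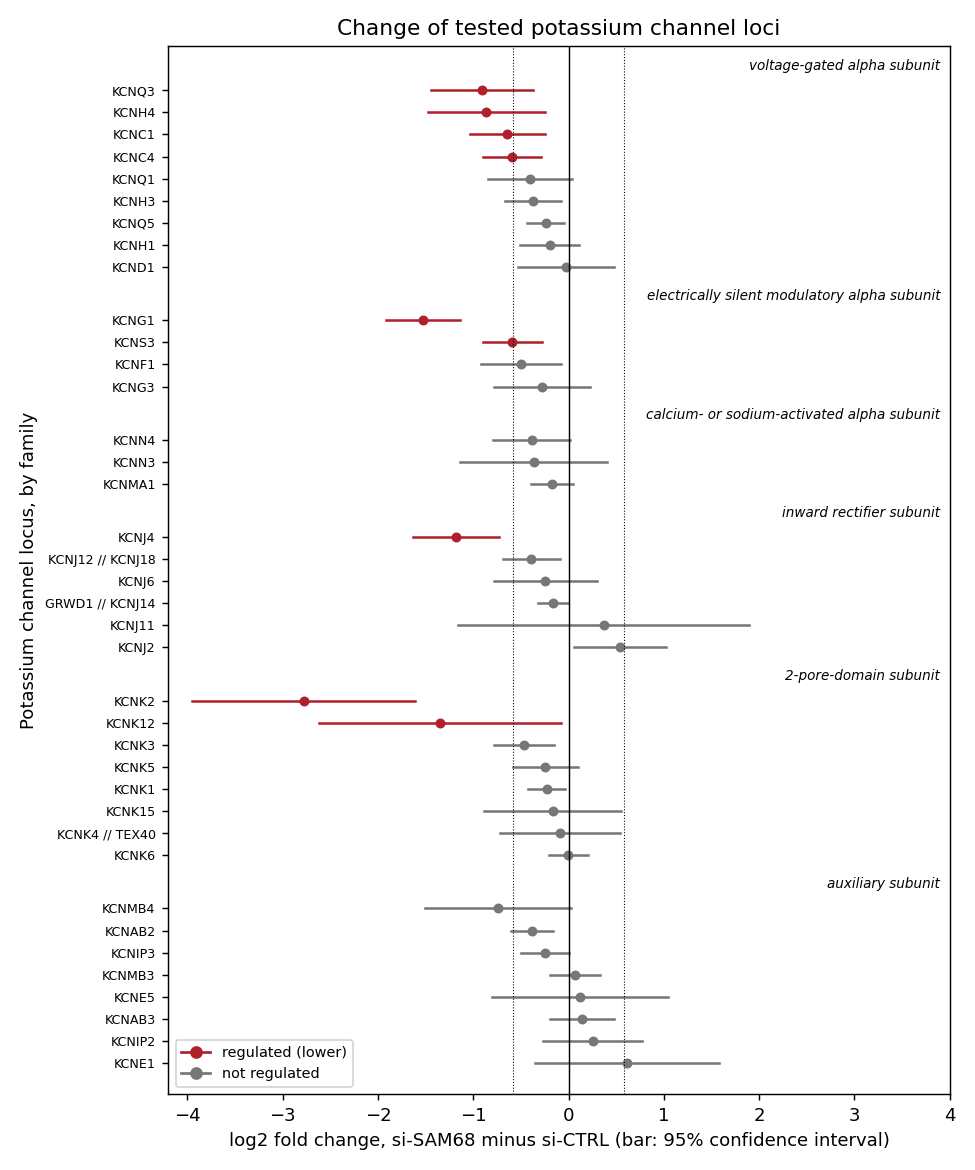
Log2 fold change of si-SAM68 over si-CTRL with its 95% confidence interval for 38 of the 41 tested potassium channel loci, grouped by family, with lines at 0 and at the fold threshold. Most estimates lie left of 0, KCNK2 is farthest at -2.78, and the auxiliary subunits are spread on both sides.

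Among the voltage-gated alpha subunits, 5 of 12 tested loci were lower, 3 of them with an adjusted p under 0.05 in limma, 11 had a log2 fold change below 0, and the family median was -0.39. Over all tested loci, 4.83% were lower, 6.23% were lower with an adjusted p under 0.05, and 49.1% were below 0. Differences between families were not tested. KCNC4 (chr1:110753336-110776674), a fast channel with rapid inactivation, had 414.9, 311.9 and 359.3 normalized reads in si-CTRL and 255.9, 218.9 and 239.1 in si-SAM68. All 3 si-SAM68 libraries lay below the lowest si-CTRL library. The log2 fold change was -0.60 (95% confidence interval -0.90 to -0.29, limma with Benjamini-Hochberg adjusted p = 0.0236), which is close to the fold threshold, and KCNC4 missed it when replicate 1 of si-CTRL (-0.49) or replicate 2 of si-SAM68 (-0.54) was left out. An unnamed locus with a mean of 165 overlaps 1456 bases of KCNC4, and reads of this stretch may be shared.

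KCNC1 (chr11:17757495-17804602), a fast delayed rectifier known from fast-spiking neurons, had 108.7, 125.9 and 119.8 normalized reads in si-CTRL and 64.5, 74.5 and 88.2 in si-SAM68. The conditions did not overlap, and the log2 fold change was -0.64 (-1.04 to -0.25, limma adjusted p = 0.0452). Without si-SAM68 replicate 1 it was -0.53 and under the fold threshold.

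KCNQ3 (chr8:133133106-133493004), which forms M-current channels with KCNQ5 and other relatives, had 63.7, 48.4 and 43.7 normalized reads in si-CTRL and 27.2, 26.7 and 26.8 in si-SAM68. Its si-SAM68 values were nearly identical and all below si-CTRL, with a log2 fold change of -0.91 (-1.44 to -0.37, limma adjusted p = 0.0397). KCNQ5, with 962, 923 and 951 normalized reads in si-CTRL, did not overlap with its 767, 824 and 809 in si-SAM68, but the difference was small (-0.24, limma adjusted p = 0.105). KCNQ1 had a log2 fold change of -0.41 (adjusted p = 0.216 in limma), and it lies on the opposite strand of KCNQ1OT1 (log2 fold change 0.08), so that their reads may be confounded if strand was not used in counting.

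KCNH4 (chr17:40308910-40333296), an ether-à-go-go-like channel of the brain, had 85.0, 69.7 and 73.2 normalized reads in si-CTRL against 55.4, 46.9 and 26.8 in si-SAM68. The ranges were apart and the log2 fold change was -0.86, with an adjusted p of 0.0740 in limma, and without si-SAM68 replicate 3, its lowest library, the value was -0.56 and the call was lost. KCNH3, its closest relative here, had -0.37 (adjusted p = 0.104 in limma) and KCNH1 -0.20 (0.399). KCND1 (log2 fold change -0.03) was not regulated.

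The electrically silent subunits held 2 lower loci among 4 tested, both with an adjusted p under 0.05 in limma, and all 4 log2 fold changes were below 0 with a median of -0.54. The shares over all tested loci were 4.83% lower, 6.23% lower with an adjusted p under 0.05, and 49.1% below 0. With 4 loci, a difference from these shares was not tested. KCNG1 (chr20:49620194-49639677) had 318.7, 218.9 and 254.8 normalized reads in si-CTRL and 78.6, 96.6 and 96.1 in si-SAM68, that is, 264 ± 50.6 against 90.4 ± 10.3 (SD, n = 3). All si-SAM68 libraries lay far below the lowest si-CTRL library. This 2.88-fold decrease (log2 fold change -1.53, -1.91 to -1.14, limma adjusted p = 0.00101) had the smallest adjusted p of the channel loci, and KCNG1 remained lower in each of the 17 alternative analyses that changed the fit, the filter or the libraries. No other locus with reads overlaps it.

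KCNS3 (chr2:18059114-18114224), a silent subunit known from airway and pulmonary artery, had 335.0, 425.2 and 354.6 normalized reads in si-CTRL against 251.9, 218.0 and 269.2 in si-SAM68. The conditions were apart, with a log2 fold change of -0.59 (-0.89 to -0.28, limma adjusted p = 0.0247) that lay just past the fold threshold and missed it without si-CTRL replicate 2 (-0.49) or si-SAM68 replicate 2 (-0.50). KCNF1 had 145.0, 102.7 and 115.0 against 85.6, 73.6 and 96.1, without overlap but with a log2 fold change of -0.50 and an adjusted p of 0.125 in limma. It met the thresholds as lower when either replicate 2 of si-CTRL or replicate 3 of si-SAM68 was omitted. KCNG3 showed -0.28 and overlapping libraries. Summed over the silent subunits, the level was 864 to 902 normalized reads in si-CTRL and 477 to 607 in si-SAM68, with KCNS3 and KCNG1 contributing most of it.

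Among inward rectifiers, KCNJ4 was lower and KCNJ2 was the one locus whose libraries stood higher. KCNJ4 (chr22:38822335-38851211) had 133.7, 224.7 and 195.8 normalized reads in si-CTRL and 85.6, 79.1 and 72.6 in si-SAM68, means of 185 ± 46.5 and 79.1 ± 6.51 (SD, n = 3). The si-SAM68 libraries were close together, and the decrease was 1.18 on the log2 scale (log2 fold change -1.18, -1.64 to -0.73, limma adjusted p = 0.00725), past the thresholds in each of the 17 alternatives. KCNJ2, also a strong inward rectifier, had 42.5, 56.2 and 62.7 in si-CTRL and 78.6, 88.3 and 67.0 in si-SAM68. Its log2 fold change was 0.54 (0.06 to 1.02), below the fold threshold, with an adjusted p of 0.143 in limma. It passed the thresholds for a higher level when either replicate 3 of si-CTRL or replicate 3 of si-SAM68 was omitted.

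The remaining inward rectifiers were not regulated. KCNJ12 // KCNJ18 had a log2 fold change of -0.39 (limma adjusted p = 0.0975) and KCNJ6 -0.24. KCNJ11 had 0.37, with an interval of -1.16 to 1.90 that leaves its direction unresolved. GRWD1 // KCNJ14 had 4829 ± 119 and 4307 ± 71.3 normalized reads, a log2 fold change of -0.16 that cannot be assigned to the channel gene.

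The 2-pore-domain family held the locus with the greatest estimated decrease, KCNK2, a mechanosensitive and lipid-sensitive leak channel. KCNK2 (chr1:215178885-215410436) had 90.0, 58.1 and 58.9 normalized reads in si-CTRL against 6.04, 24.8 and 4.47 in si-SAM68, the latter corresponding to 6, 27 and 4 reads. Replicate 2 of si-SAM68, at 24.8, was several times above the other si-SAM68 libraries but below all si-CTRL libraries. The log2 fold change was -2.78 with a wide interval of -3.95 to -1.61 (limma adjusted p = 0.0111), a 6.87-fold decrease of the fitted values, and across the 16 alternatives in which it was tested the log2 fold change was between -3.47 and -2.31 and always past the thresholds. It did not pass the minimum mean of 50 in the stricter filter, and no other locus with reads overlaps it.

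KCNK12 (chr2:47747917-47797498), a silent relative in this family, had 20.0, 11.6 and 14.3 normalized reads in si-CTRL against 6.04, 1.84 and 11.2 in si-SAM68. It met the thresholds at a log2 fold change of -1.35, but the adjusted p was 0.162 in limma and the interval of -2.62 to -0.08 was wide. It lost the call when replicate 3 of si-CTRL (-1.38), replicate 1 of si-SAM68 (-1.44) or replicate 2 of si-SAM68 (-0.78) was omitted, after quantile normalization (-1.62) and with DESeq2 (-1.29), and without replicate 1 of si-CTRL its mean was under the minimum. The gene overlaps another expressed locus, so that a share of these few reads may not be its own.

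The leak channels with higher levels moved little. KCNK1 had 3082, 2946 and 3522 normalized reads in si-CTRL and 2645, 2717 and 2765 in si-SAM68. Its libraries did not overlap, but the log2 fold change was only -0.23 (-0.42 to -0.04, limma adjusted p = 0.124). KCNK6 had means of 1137 ± 27.1 and 1138 ± 89.7, with a 95% confidence interval of -0.20 to 0.20 for its log2 fold change. KCNK3, an acid-sensitive leak channel, had a log2 fold change of -0.47 (limma adjusted p = 0.0615), KCNK5 -0.24, KCNK15 -0.17 and KCNK4 // TEX40 -0.09. Hence all 8 estimates of this family were below 0 in limma (49.1% of all tested loci), with a median of -0.24, although that of KCNK6 was so close to 0 that its sign turned with edgeR, DESeq2, quantile normalization and the omission of si-CTRL replicate 2 or si-SAM68 replicate 3. KCNK15 (0.10) and KCNK4 // TEX40 (0.13) turned when replicate 1 or replicate 3 of si-CTRL, respectively, was omitted. KCNK3 met the thresholds as lower when replicate 1 of si-CTRL was omitted.

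**Figure D4:**
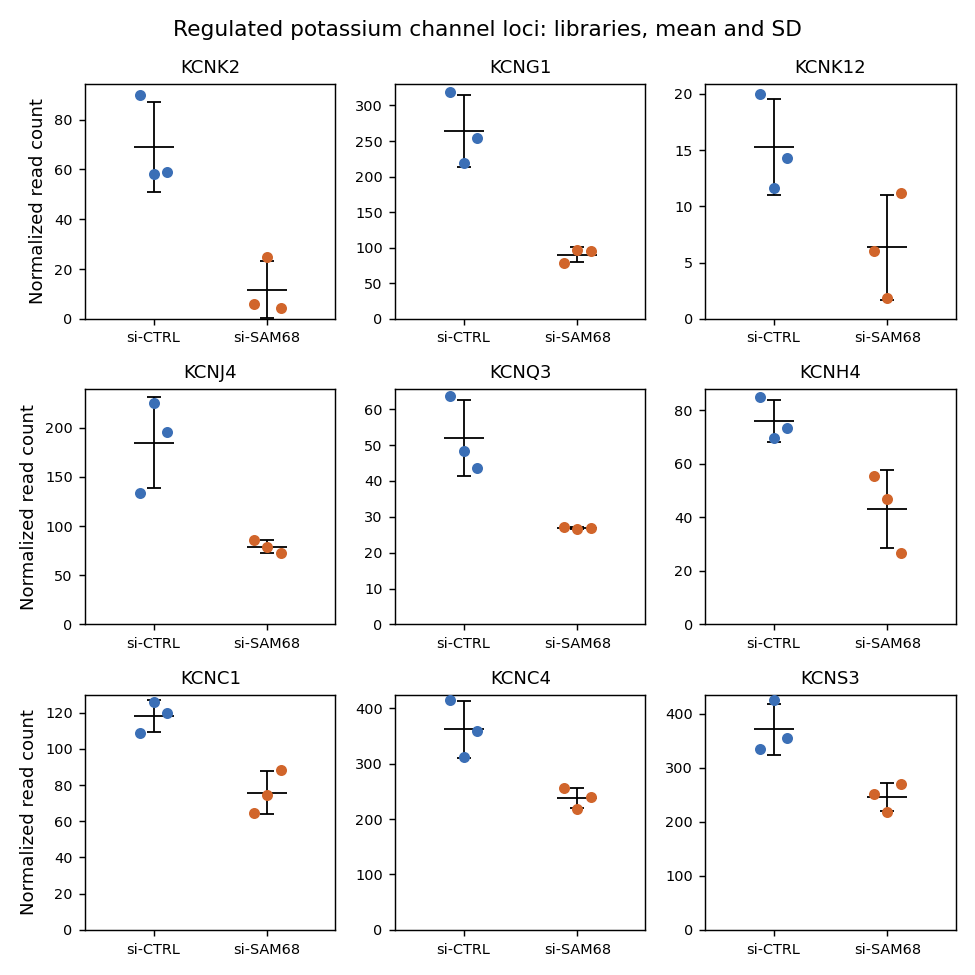
Normalized read counts (axes from 0) of 9 of the 10 lower potassium channel loci, with 1 point per library of si-CTRL and si-SAM68 and bars for the mean and SD. In each panel the 3 si-SAM68 libraries lie below every si-CTRL library, and those of KCNK2 are at 6.04, 24.8 and 4.47. The loci were selected by these same values, so the separation in the panels is no further evidence. Of all tested loci, 17.3% were separated in this direction.

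No calcium-activated channel was regulated by limma, edgeR or DESeq2, and none of the 3 tested loci had an unadjusted p under 0.05 by any of these tools. KCNMA1 (chr10:78629359-79397577) had 7385, 5882 and 6106 normalized reads in si-CTRL and 5421, 6110 and 5615 in si-SAM68. The ranges overlapped, and the interval of its log2 fold change (-0.17) was -0.39 to 0.05, which does not reach the fold threshold. KCNN4 had 87.5, 70.7 and 77.0 against 58.4, 63.5 and 57.0, without overlap but with a log2 fold change of -0.39 (limma adjusted p = 0.206). KCNN3 had -0.37 with overlapping libraries.

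The auxiliary subunits had a median log2 fold change of 0.09, with 3 of 8 estimates below 0 (49.1% of all tested loci), and the difference from the pore-forming families was not tested. None was regulated by limma, edgeR or DESeq2, and 1, KCNAB2, had an unadjusted p under 0.05 in each of these tools. KCNAB2 (chr1:6052358-6161252), a beta subunit with an aldo-keto reductase fold that promotes surface expression of voltage-gated channels, had 703.7, 832.0 and 794.8 normalized reads in si-CTRL and 609.5, 597.9 and 575.3 in si-SAM68. It fell by 0.38 on the log2 scale (-0.61 to -0.16, limma adjusted p = 0.0382), without overlap and without reaching the fold threshold. KCNIP3, which also acts as a transcriptional repressor, had a log2 fold change of -0.25 (limma adjusted p = 0.187), KCNMB4 -0.74 (0.199), KCNIP2 0.25, KCNE1 0.61 (0.397), KCNAB3 0.14, KCNMB3 0.06 and KCNE5 0.12. KCNAB3 turned to -0.01 without si-CTRL replicate 2. Without that library KCNE1 met the thresholds as higher, and without si-CTRL replicate 3 KCNMB4 met them as lower. KCNMB4 also met them as lower by eBayes without a trend. KCNQ1OT1 had 782, 912 and 588 against 663, 1163 and 650 normalized reads, so that neither condition was higher throughout. Its log2 fold change of 0.08 turned to -0.19 when replicate 2 of si-SAM68, its highest library, was omitted and to -0.09 when replicate 3 of si-CTRL was.

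Loci just under the minimum were not tested, and their values are given as a description. KCNH5 was closest, with means of 14.6 in si-CTRL and 5.34 in si-SAM68 and 59 reads in all, followed by KCNN1 with 13.6 and 5.37. In both, every si-SAM68 library was below every si-CTRL library. KCNK7 (6.77 and 12.1), KCNN2 (8.72 and 9.42), KCNJ5 (9.04 and 8.71), KCNE2 (6.69 and 8.61) and KCNJ1 (6.99 and 6.02) came next and had overlapping libraries, with means that were higher in some and lower in others. Below them, the noncoding KCNMA1-AS3 (10.7 and 1.91) and KCNU1 (10.3 and 2.04) again had every si-SAM68 library below si-CTRL. Just above the minimum stood KCNE5, KCNK12 and KCNE1, among others.

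Seed matches of the siRNAs were looked up because partial pairing of a siRNA with 3'UTRs can lower other transcripts. The motif GACGTTA of siSAM68_1, the motif TGCTGAT of siSAM68_2, the motif ATATCTG of siSAM68_3 and the motif TATTGGG of siSAM68_4 were searched on the transcript strand of the longest annotated 3'UTR of each gene, which need not be the one used in these cells. At least 1 motif was present in 4 of the 10 lower channel loci (40%), in 12 of the 28 other tested channel genes with a 3'UTR (42.9%) and in 29.8% of the 11971 tested genes with one, whose 3'UTRs were shorter (median 1384 bases against 1991 for the channel genes). KCNK2, KCNG1, KCNJ4, KCNC1 and KCNH4 had no match in this window, and KCNQ3 had 1. Of the lower loci with a match, KCNS3, KCNC4 and KCNK12 are shown and KCNQ3 is not, with the shared 7 bases in capitals and 8 bases on either side (GENCODE transcripts on GRCh38).
KCNS3 (chr2:17932732-17932754, plus strand): ataaatggTATTGGGtggggttt
KCNC4, first site (chr1:110234073-110234095, plus strand): tctgtgtcTATTGGGacctcctg
KCNC4, second site (chr1:110246782-110246804, plus strand): tacacattTATTGGGtacaagtg
KCNK12 (chr2:47520027-47520049, minus strand): aaccaggaATATCTGagtcttct
A match is a description of the sequence, and whether any of these sites was bound was not tested. Whether these GRCh38 sites lie within the hg19 coordinates of the counted loci was not tested either.

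Genes that work with potassium channels were compared from 5 lists of 92 genes, of which 64 were tested. By the same thresholds 2 were higher and 6 were lower (12.5%, against 7.67% of all tested loci in either direction), and the median log2 fold change was -0.05. Of the other channel partners, 1 of 9 tested was lower, the sulfonylurea receptor ABCC8 (62.2 against 37.4 normalized reads, log2 fold change -0.70, limma adjusted p = 0.0746), which is the partner of KCNJ11 in ATP-sensitive channels. NEDD4L, a ubiquitin ligase that removes channels from the membrane, increased by less than the fold threshold (0.48, limma adjusted p = 0.0176). Of the 18 tested genes of potassium uptake and cotransport, 1 was regulated, the kinase WNK2 (-0.79, limma adjusted p = 0.00549), and SLC12A4, STK39 and OXSR1, a potassium-chloride cotransporter and 2 kinases downstream of WNK, also had adjusted p-values under 0.05 (log2 fold changes -0.27, -0.29 and -0.39).

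In the calcium entry list, which supplies the trigger of calcium-activated channels, ORAI3 was higher (log2 fold change 0.66, limma adjusted p = 0.00739) and PIEZO2 was lower (-0.79, adjusted p = 0.0128) among 11 tested genes. In the list of chloride channels and volume regulation, LRRC8B, a subunit of the volume-regulated anion channel, was higher (0.83, limma adjusted p = 0.00153) and BEST1 was lower (-0.63, adjusted p = 0.185) among 18, while ANO6 and CLCN3 increased by less than the fold threshold (0.33 and 0.29, adjusted p = 0.0184 and 0.0369). Of the 8 tested cation channels with a related pore, HCN4, a pacemaker channel that conducts sodium and potassium, was lower (-1.23, limma adjusted p = 0.0111).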

How the data were processed

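RNA of MDA-MB-231 cells was sequenced by the authors, with 3 libraries for each of si-CTRL and si-SAM68. Library preparation started from 1 µg of total RNA with a stranded kit, per the labels, whose culture medium and extraction kit differ from those of the study's methods. The authors deposited a signal, that is, the reads counted per FAST DB locus (hg19) divided by a size factor of the library. The submitters' processing notes name FastQC, Picard, SAMtools, STAR 2.4.0 and DESeq2. The counting program and its use of strand are not given in the sources used here, so overlapping or near-identical genes may share reads.

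Whole reads were recovered from the smallest step of each library (100% of the values whole within 0.01). Loci averaging 10 or more normalized reads across all 6 libraries entered limma 3.58.1 (R 4.3.3; lmFit, then trended eBayes). The values were log2-transformed after adding 1, without a replicate term, and Benjamini-Hochberg adjustment covered all loci tested. Scripts were tested on simulated data. Groups and replicate numbers came from the sample titles. Correlations of deviations from the group means were 0.105, 0.231 and 0.125 for libraries of the same number and -0.125 to 0.00687 for others. Libraries of the same number thus shared a small part of their deviation, and whether they were prepared as pairs is not stated. Alternatives comprised the pseudocount, filter, scaling, variance model, replicate block, thresholds, omission of each library, and edgeR 4.0.16 and DESeq2 1.42.0 on recovered reads.

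Genes named are all regulated or adjusted-significant loci, the 10 highest per kilobase and the highest of each family, with the others given by value or count. A few named loci are not reported here. Members and gene lists were chosen with earlier results of these data known. Transcript lengths and 3'UTRs came from GENCODE (GRCh38), used for length and sequence.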

Additional observations from a re-analysis of the deposited data

How the results depend on the processing

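The 10 regulated channel loci became 14 without the filter on low values (13 lower and 1 higher, 5 with an adjusted p under 0.05 of then 33359 loci tested), 6 at a minimum mean of 50, where 4 of the 10 were no longer tested, 6 after quantile normalization and 4 at a fold change of at least 2, all lower in the last 3. The 8 loci with an adjusted p under 0.05 became 3 by eBayes without a trend and 4 with the replicate block, in which KCNAB2, KCNC1, KCNQ3 and KCNS3 had limma adjusted p-values of 0.0615, 0.0588, 0.0596 and 0.0520, and the block changed no other count by over 1.5 times. edgeR called 10 regulated loci and DESeq2 8, with 8 and 9 adjusted p under 0.05, which included all 8 of limma. Leaving out 1 library at a time gave 7 to 11 regulated loci, 7 to 10 lower and 0 to 1 higher, 2 to 9 with an adjusted p under 0.05, 41 to 45 expressed loci and 5 to 8 regulated partner genes. Expressed loci numbered 42 with KCNQ1OT1, 30 at a minimum mean of 50 and 60 at a minimum of 1. The log2 fold change of KCNK6 turned to 0.0068 with quantile normalization, 0.0036 with edgeR and 0.0024 with DESeq2, and ranged from -0.0522 to 0.0609 (0.0156 without si-CTRL replicate 2) when 1 library was left out. That of KCNAB3 ranged from -0.0082 (without si-CTRL replicate 2) to 0.249 over such omissions. The signs of KCND1, KCNJ11, KCNE5, KCNK15, KCNK4 // TEX40 and KCNQ1OT1, none of them regulated, also turned under at least 1 alternative. The cause of these changes was not tested. For KCNK12 and loci of similar level, depth limits the comparison.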
